A study of Mus musculus with 14 samples.

Results

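The lysosomal genes described here are 50 genes in 7 classes: 13 cathepsins and other proteases, 2 cystatins, 11 glycosidases and glycan enzymes, 10 lipid enzymes, activators and carriers, 3 phosphatases and nucleases, 8 membrane proteins including parts of the proton pump, and 3 transcription regulators. They were chosen by name, and each of the 50 names matched 1 row of a count table of 49315 genes. All 50 passed the filter on low counts, which left 15700 genes to test. RNA was sequenced from primary microglia of TIMP2 KO and WT mice, with 7 libraries per genotype. TIMP2 KO mice carry a global deletion of TIMP2, an inhibitor of matrix metalloproteinases, and both genotypes are on a C57BL/6 background (C57Bl/6J in the study's methods). Each library came from the forebrains of 5 pups, 6 to 7 days old, of both sexes, which were pooled, selected with CD11b microbeads and kept in culture with serum. The labels give no further treatment for either genotype. The comparison asks whether loss of TIMP2 moves the lysosomal transcripts of these cells.

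The lysosome is the acidic compartment in which cells break down what they have engulfed and their own worn parts. Its hydrolases each cut 1 kind of bond in proteins, glycans or lipids, and many inherited storage diseases of the brain follow from loss of one of them. A proton pump in the lysosomal membrane sets the low pH that these enzymes need. Microglia, the resident macrophages of the brain, are rich in lysosomes because they clear debris, myelin and synaptic material. TFEB, TFE3 and MITF are related transcription factors that enter the nucleus when nutrient signalling through mTORC1 falls. They bind short E-box motifs near lysosomal genes.

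The libraries held 38875344 to 48070236 counted reads. Timp2 itself was measured at 398, 476 and 495 CPM (counts scaled to a common library size; lowest, median and highest WT library) and at 120, 121 and 129 CPM in KO. Its log2 fold change, KO over WT, was -1.92 (SE 0.0464, edgeR adjusted p = 1.53e-12), so that the groups did not overlap and each library fitted its label. Which exons of Timp2 the remaining KO reads cover cannot be read from a count per gene. All 11 microglia markers were measured, and their summed level was 7666, 8911 and 9916 CPM in WT and 7720, 9743 and 10305 CPM in KO. The 8 astrocyte markers summed to 32.8, 86.5 and 258 CPM in WT and to 29.3, 48.4 and 136 CPM in KO. The oligodendrocyte markers summed to between 73.2 and 133 CPM, with Sox10 and Mog under 1 CPM on average, and the neuron markers to between 21.5 and 54.4 CPM. In such cultures a change in the number of cells of a type and a change in RNA per cell cannot be told apart.

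The lysosomal genes took 6.72%, 7.23% and 7.34% of all counted reads in the WT libraries (lowest, median and highest) and 6.68%, 6.93% and 7.6% in KO. The groups overlapped along most of their range. Ctsb and Ctsd, the cysteine protease cathepsin B and the aspartic protease cathepsin D, together held 46.4% of the reads on these 50 genes. The average WT library had from 59.7 reads on Acp5 to 975133 on Ctsb, so that counting error was small for nearly all members.

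No lysosomal gene changed past the threshold between TIMP2 KO and WT. In edgeR 0 of 50 members had an adjusted p under 0.05, against 0.0191% of all genes tested, and DESeq2 also called 0 of 50. At an unadjusted p under 0.05 there was 1 member, Smpd1, where 3.37% of all genes tested reached that level and 1.62% did so with a lower level in KO, as Smpd1 did. The adjusted p of the members lay between 0.943 and 1. The members' fold changes were small in both directions. They ran from -0.10 for Smpd1 to 0.16 for Acp5 on the log2 scale, with a median of 0.02 against 0.00 for all genes tested. For 47 of 50 members the 95% interval of the log2 fold change lay inside -0.5 to 0.5, against 71.5% of all genes tested. Of the 48 members with at least 10 CPM it did so for 97.9%, against 97% of all genes at that level. The remaining 3 were Ctsk, Acp5 and Atp6v0d2, which also had the largest spread between libraries of a genotype. For 48 of 50 members the genotype means differed by less than 1 SD between libraries of a genotype, against 93.2% of all genes tested. The number of members at an unadjusted p under 0.05 was 5 without KO 1, where 6.31% of all genes tested reached that level. It was 3 without KO 3 (2.75% of all genes) or KO 7 (4.32%), and 2 without WT 1 (3.64%), WT 6 (3.01%) or WT 7 (3.69%), and Smpd1 was among them each time.

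**Figure D1:**
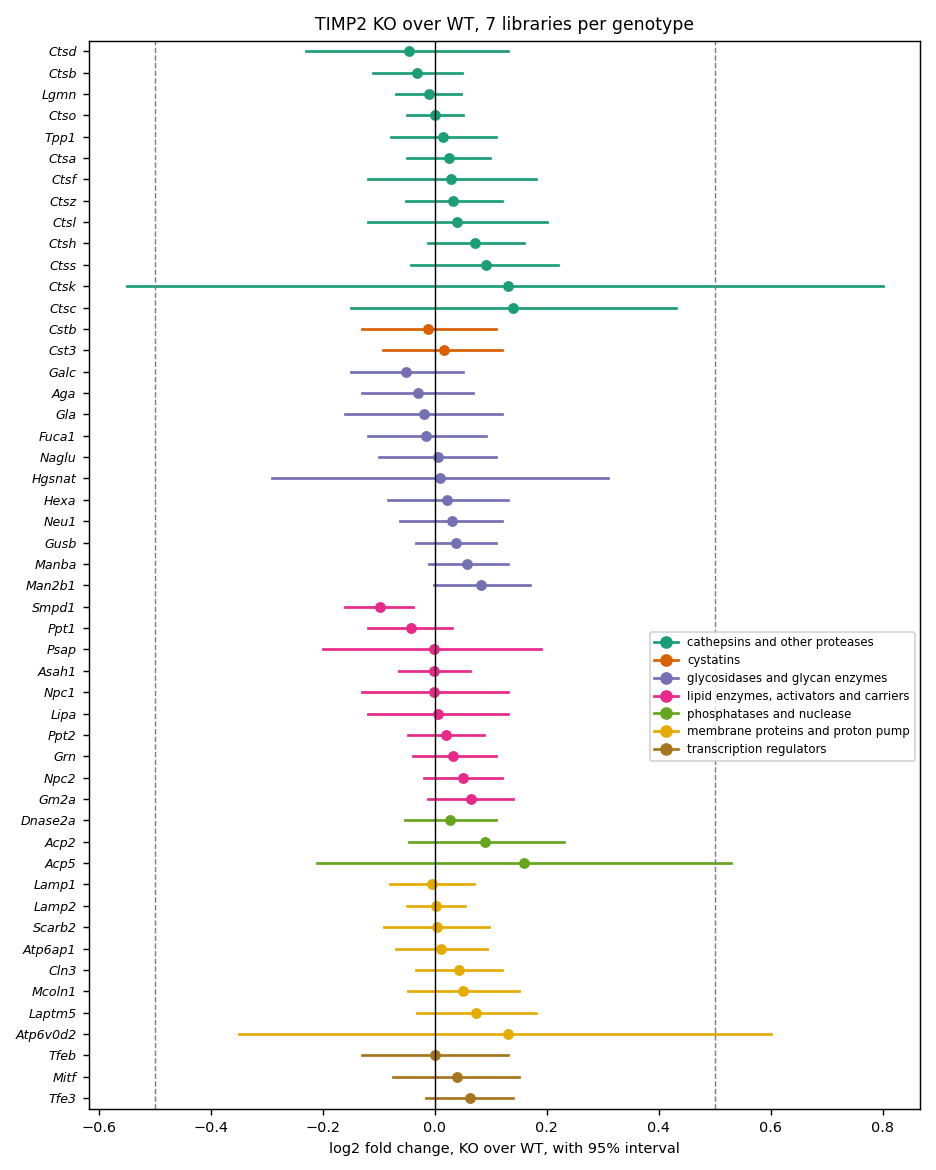
Log2 fold change of each lysosomal gene, KO over WT, as a point with its 95% interval as a line (edgeR, 7 libraries per genotype). Genes are grouped by class in colours, the solid line marks 0 and the dashed lines -0.5 and 0.5. The interval of Smpd1 lies below 0, and those of Ctsk, Acp5 and Atp6v0d2 reach past 0.5.

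More members had a positive than a negative fold change, 35 of 50 (70%), where 50.8% of all genes tested were higher in KO and 57.4% of those with at least 10 CPM. This count leaned on the scaling and on single libraries. With upper-quartile factors, under which the median of all genes was -0.01 and 43.0% of all genes were higher in KO, 28 of 50 members (56%) were higher. Without single libraries the count ran from 28 without KO 1, where 49% of all genes were higher, and 29 without KO 4 (49.9%) to 38 without WT 1 (52.7%) or WT 7 (51.4%) and 40 without KO 7 (52.5%).

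The proteases held the most reads of the 7 classes, 4.33%, 4.73% and 4.83% of all counted reads in WT (lowest, median and highest library) and 4.28%, 4.54% and 4.93% in KO. Ctsd had the highest level per length of all 50 genes, at 4986 ± 464 CPM per kb of merged exons (SD, n = 7, WT), followed by Ctsb at 3588 ± 85.3 (SD, n = 7). Next in this class were Ctss, the cathepsin that trims the MHC class II invariant chain, at 1816 CPM per kb, Lgmn, an asparaginyl endopeptidase that activates other cathepsins, at 1416, and Ctsz, a carboxypeptidase, at 1034. Ctsa, which protects a lysosomal sialidase and galactosidase, stood at 396 CPM per kb, Ctsl at 341, Ctsc, which activates serine proteases of immune cells, at 161, and the tripeptidyl peptidase Tpp1 at 106. The aminopeptidase Ctsh had 38.2 CPM per kb, Ctso 9.59, Ctsf 7.50 and Ctsk, the collagen-cutting cathepsin of osteoclasts, 3.50. The range within the class thus spanned more than 3 powers of 10 on the scale of level per length.

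Of the 13 proteases, 10 had a positive and 3 a negative fold change, with a median of 0.03 on the log2 scale. None reached an unadjusted p under 0.05. The smallest p belonged to Ctsh, at 164, 175 and 182 CPM in WT (lowest, median and highest library) and 160, 180 and 198 CPM in KO. Its KO libraries lay both below and above the WT range, and the log2 fold change was 0.07 (SE 0.0401, 95% interval -0.01 to 0.16). Ctss was measured at 2291, 2463 and 2622 CPM in WT and 2305, 2588 and 2996 CPM in KO. Its highest KO libraries exceeded the WT range while its lowest did not, with a log2 fold change of 0.09 (SE 0.0623, 95% interval -0.04 to 0.22). Ctsd (ENSMUSG00000007891, GRCm38 chr7:142375911-142388038, minus strand) was measured at 9924, 11913 and 12927 CPM in WT and 8821, 11521 and 13628 CPM in KO. Its KO libraries covered the whole WT range, with a log2 fold change of -0.05 (SE 0.0838, 95% interval -0.23 to 0.13). Of its exon bases, 34.4% are shared with Gm49369 on the same strand, so its reads could have been split or dropped in counting. Ctsb (ENSMUSG00000021939, chr14:63122462-63145923, plus strand) had 20836, 21726 and 22383 CPM in WT and 20071, 21237 and 22460 CPM in KO. These ranges nearly coincide, and the interval of its log2 fold change ran from -0.11 to 0.05.

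The cystatins block cysteine cathepsins, Cst3 mostly outside cells after secretion and Cstb in the cytosol. Cst3 stood at 1009 CPM per kb in WT and Cstb at 391. Cst3 was measured at 1089, 1282 and 1413 CPM in WT and 1184, 1283 and 1387 CPM in KO, and the log2 fold change was 0.02 (SE 0.0511, 95% interval -0.09 to 0.12). Cstb was measured at 216, 230 and 265 CPM in WT and 209, 234 and 262 CPM in KO, and the log2 fold change was -0.01 (SE 0.0557, 95% interval -0.13 to 0.11). The medians of the genotypes were almost equal for both inhibitors.

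The glycosidases and glycan enzymes remove sugars from glycoproteins, glycolipids and glycosaminoglycans. Hexa, the alpha subunit of beta-hexosaminidase, was the highest of them per length, at 660 CPM per kb in WT. Gusb, beta-glucuronidase, stood at 175 CPM per kb, Man2b1, alpha-mannosidase, at 171, the fucosidase Fuca1 at 64.2 and Gla, alpha-galactosidase A, at 64.1. Naglu and Hgsnat, which act in heparan sulfate breakdown, had 50.2 and 37.7 CPM per kb, and the sialidase Neu1 29.4. Aga, which frees sugars from asparagine, had 16.3 CPM per kb, the beta-mannosidase Manba 15.3 and Galc, which cuts the myelin lipid galactosylceramide, 13.2. The place of Galc depended on the length used. Per kb of the longest transcript it stood at 44.3 CPM, above Neu1 at 30.4, Manba at 29 and Aga at 16.8. Of the 11, 7 had a positive and 4 a negative fold change, with a median of 0.01 on the log2 scale and no unadjusted p under 0.05. Man2b1 came nearest, at 1303, 1350 and 1458 CPM in WT and 1365, 1466 and 1567 CPM in KO. Its median KO library was just above the highest WT library, and the log2 fold change was 0.08 (SE 0.0392, 95% interval 0.00 to 0.17). Manba was measured at 103, 107 and 111 CPM in WT and 104, 112 and 119 CPM in KO, a log2 fold change of 0.06 (SE 0.0323, 95% interval -0.01 to 0.13). Hexa was measured at 1227, 1303 and 1454 CPM in WT and 1210, 1289 and 1507 CPM in KO, a log2 fold change of 0.02 (SE 0.0498, 95% interval -0.08 to 0.13). Its groups overlapped along their whole range, and 12.8% of its exon bases are shared with Tmem202 on the opposite strand.

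Among the lipid enzymes, activators and carriers, Psap, the precursor of the saposins that present sphingolipids to their enzymes, stood highest at 1908 ± 194 CPM per kb (SD, n = 7, WT). Grn, progranulin, followed at 797 CPM per kb and Npc2, a carrier of cholesterol inside the lysosome, at 192. The acid ceramidase Asah1 had 162 CPM per kb, the acid lipase Lipa 161, the palmitoyl-protein thioesterases Ppt1 and Ppt2 77.4 and 18.2, the cholesterol exporter Npc1 34.6, the GM2 activator Gm2a 33.2 and Smpd1 8.83. The class had 5 positive and 5 negative fold changes, with a median of 0.00 on the log2 scale.

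Smpd1 (ENSMUSG00000037049, chr7:105554360-105558389, plus strand) encodes acid sphingomyelinase, which turns sphingomyelin into ceramide. It was measured at 28.8, 28.9 and 30.6 CPM in WT and at 25.9, 27.4 and 28.8 CPM in KO. The highest KO library and the lowest WT library both stood at 28.76 CPM as rounded. Before rounding the whole KO range lay barely under the WT range, as held for 0.0764% of all genes tested. The groups did not overlap in either direction for 0.0828%. Whether Smpd1 stays without overlap under other scaling factors was not examined. The log2 fold change was -0.10 (SE 0.0277, 95% interval -0.16 to -0.04). Its p in edgeR was the smallest of the 50 members, but the adjusted p was 0.943, so the difference did not pass the threshold. Over the 14 fits that left out 1 library, the log2 fold change of Smpd1 ran from -0.11 to -0.08.

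Gm2a was measured at 131, 136 and 145 CPM in WT and 128, 146 and 149 CPM in KO, a log2 fold change of 0.06 (SE 0.0361, 95% interval -0.01 to 0.14). Psap was measured at 4313, 5192 and 6077 CPM in WT and 4564, 4808 and 6570 CPM in KO, a log2 fold change of 0.00 (SE 0.0911, 95% interval -0.20 to 0.19). Both genes overlapped between genotypes. Grn (chr11:102430315-102437048) lies 15.9 Mb from Timp2 and is the member nearest to it, with 3 members on chromosome 11. It was measured at 2668, 2767 and 2942 CPM in WT and 2708, 2834 and 3071 CPM in KO, and the interval of its log2 fold change ran from -0.04 to 0.11.

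The phosphatases and the nuclease were a low class. Acp2, the lysosomal acid phosphatase, had 35.7 CPM per kb in WT, Dnase2a, which digests engulfed DNA, 26.8, and Acp5, the tartrate-resistant phosphatase known from osteoclasts, 0.654, the lowest of the 50 genes. All 3 had a positive fold change, with a median of 0.09 on the log2 scale. Acp2 was measured at 172, 185 and 207 CPM in WT and 165, 197 and 236 CPM in KO, a log2 fold change of 0.09 (SE 0.0638, 95% interval -0.05 to 0.23). Acp5 was measured at 1.09, 1.30 and 1.78 CPM in WT and 1.07, 1.31 and 2.13 CPM in KO, a log2 fold change of 0.16 (SE 0.173, 95% interval -0.21 to 0.53). Its medians were almost equal, and the positive fold change came with a wide interval, from -0.21 to 0.53. Without KO 3, the highest library of Acp2 and Acp5, the median of the class was 0.04, and with the astrocyte marker level as a covariate it was also 0.04. Dnase2a shares 30% of its exon bases with Mast1 on the opposite strand.

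The membrane proteins line the lysosome, carry ions across it or acidify it. Lamp1, the main glycoprotein of its membrane, had 816 CPM per kb in WT and Laptm5, a membrane protein of blood-lineage cells, 565. Atp6ap1, an accessory subunit of the proton pump, had 143 CPM per kb, Lamp2, which also serves chaperone-mediated autophagy, 95, Scarb2, the receptor that brings glucocerebrosidase to the lysosome, 48.0, and Atp6v0d2, a macrophage and osteoclast isoform of the d subunit of the pump, 42.5. Cln3, a membrane protein lost in juvenile Batten disease, had 24.3 CPM per kb and Mcoln1, the calcium channel that links the lysosome to TFEB, 14.7. Of the 8, 7 had a positive fold change, with a median of 0.03 on the log2 scale. Lamp1 was measured at 2079, 2198 and 2279 CPM in WT and 2036, 2172 and 2325 CPM in KO, a log2 fold change of 0.00 (SE 0.0351, 95% interval -0.08 to 0.07). Laptm5 was measured at 1958, 2142 and 2280 CPM in WT and 1969, 2238 and 2488 CPM in KO, a log2 fold change of 0.07 (SE 0.0487, 95% interval -0.03 to 0.18). Cln3 was measured at 133, 139 and 150 CPM in WT and 133, 145 and 154 CPM in KO, a log2 fold change of 0.04 (SE 0.0358, 95% interval -0.03 to 0.12). Of these, Laptm5 showed the widest excess of the highest KO library over the WT range.

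The 3 transcription regulators were in the lower part of the range, at 19.3 CPM per kb for Tfe3, 19.1 for Mitf and 10.1 for Tfeb in WT. Tfeb was measured at 51.1, 58.1 and 61.7 CPM in WT and 51.6, 56.7 and 65.8 CPM in KO, a log2 fold change of 0.00 (SE 0.0613, 95% interval -0.13 to 0.13). Tfe3 was measured at 164, 179 and 186 CPM in WT and 170, 189 and 197 CPM in KO, a log2 fold change of 0.06 (SE 0.0361, 95% interval -0.01 to 0.14). Mitf was measured at 111, 120 and 129 CPM in WT and 110, 121 and 144 CPM in KO, a log2 fold change of 0.04 (SE 0.0533, 95% interval -0.07 to 0.15). All 3 overlapped between genotypes. The RNA of these factors does not show how much of the protein was in the nucleus, which was not measured.

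**Figure D2:**
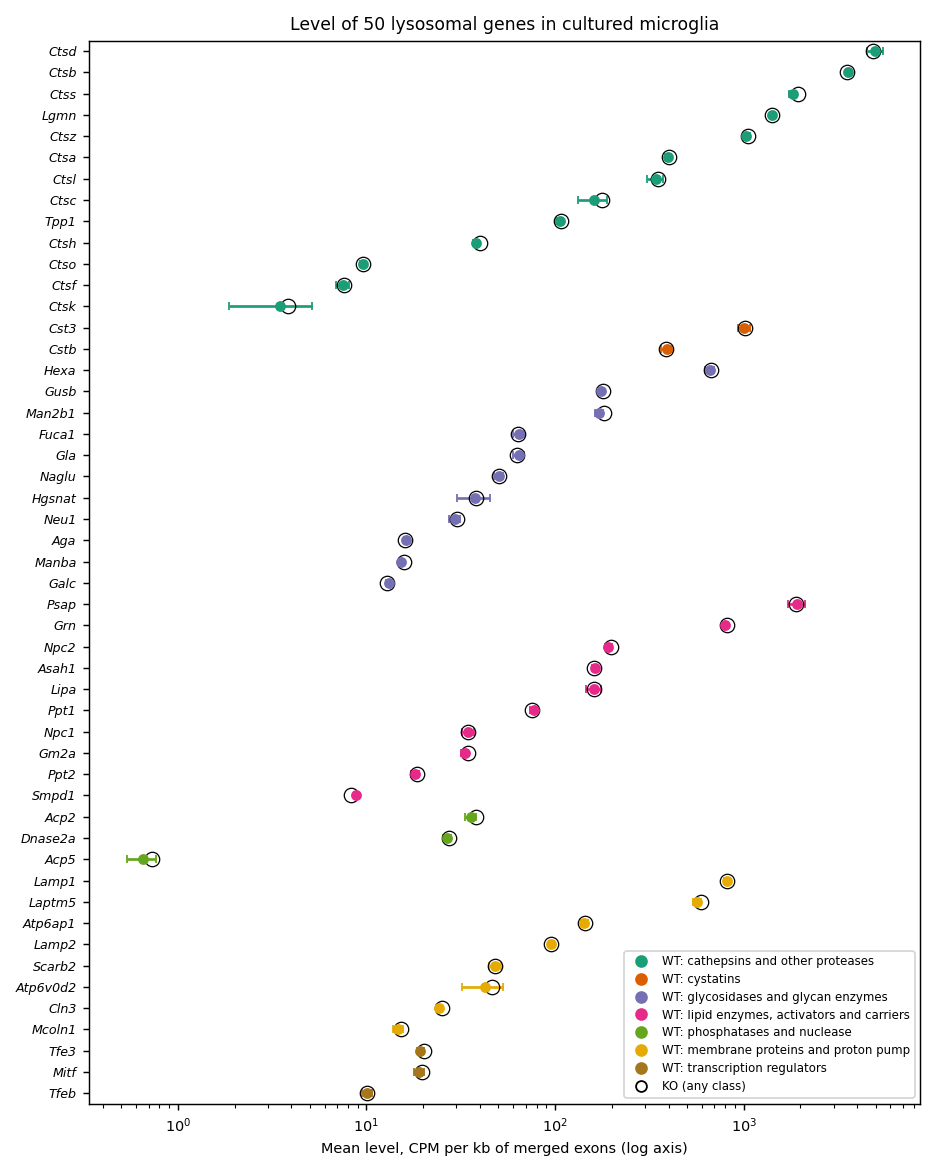
Mean level of each gene in CPM per kb of merged exons on a log axis, grouped by class. Filled points are WT means with SD bars and open circles are KO means, 7 libraries each, and the levels run from 0.654 for Acp5 to 4986 for Ctsd in WT.

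From Acp5 to Ctsd the WT levels per length spanned a factor of 7624. Ordered by level, 19 of 49 pairs of neighbours lay closer together than the spread of their libraries, among them Psap and Ctss, Ctsz and Cst3, Lamp1 and Grn, Fuca1 and Gla, and Tfe3 and Mitf. With the longest transcript in place of the merged exons as the length, 47 of 50 genes moved by at most 5 places in this order. The exceptions all moved up, Galc from place 44 to 33, Mcoln1 from 43 to 36 and Npc1 from 33 to 26.

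The genes differed widely in how much they varied between cultures of the same genotype. Lamp2 varied least, with an SD of 0.0346 on the log2 CPM scale within a genotype, followed by Lgmn at 0.0358 and Ctso at 0.0369. The median over the 50 members was 0.0867, against 0.145 over all genes tested and 0.0814 over all genes with at least 10 CPM. The widest spread was found for Ctsk at 0.642, Atp6v0d2 at 0.451, Acp5 at 0.317, Hgsnat at 0.288 and Ctsc at 0.283. The 2 most abundant cathepsins also differed in this, with 0.168 for Ctsd and 0.0518 for Ctsb.

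**Figure D3:**
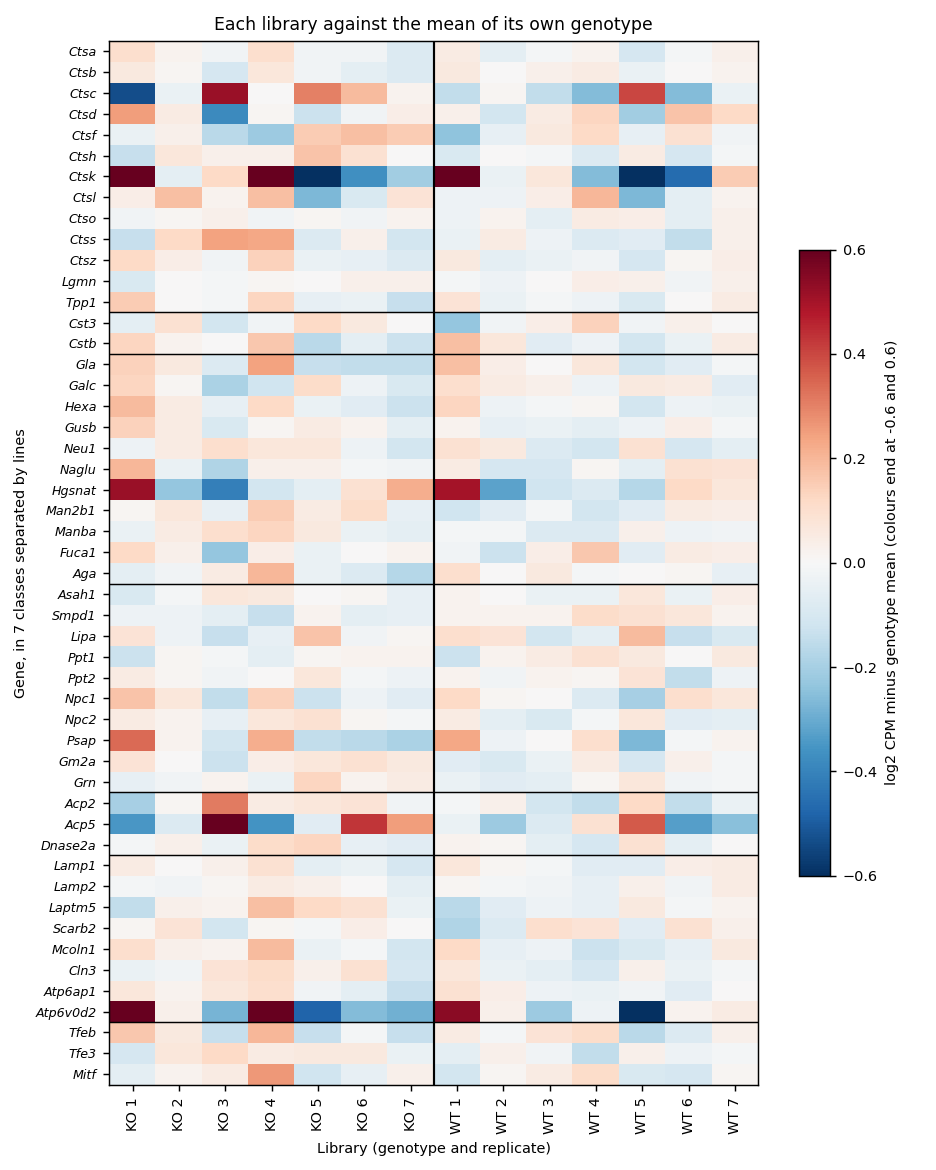
Log2 CPM of each gene in each library minus the mean of all 14 libraries, with genes in rows by class and libraries in columns. The title and colour label name the genotype mean, but the values shown keep the difference between the genotypes. Red is above and blue below that mean, and colours end at -0.6 and 0.6. Ctsk and Atp6v0d2 stand out in red in KO 1, KO 4 and WT 1 and in blue in KO 5 and WT 5.

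Atp6v0d2 (ENSMUSG00000028238, chr4:19876841-19922605, minus strand) was high in 3 cultures of both genotypes. It was measured at 199 CPM in KO 4, 197 in KO 1 and 168 in WT 1, while the other 11 libraries held between 72.8 CPM (WT 5) and 120 CPM (WT 7). Ctsk had its highest values in the same 3 libraries, with 10.5 CPM in KO 1, 10.4 in WT 1 and 8.81 in KO 4, and its lowest in KO 5 with 2.54 and WT 5 with 2.83. Psap followed this order too, with 6570 CPM in KO 1, 6077 in WT 1 and 6068 in KO 4 and the lowest value, 4313, in WT 5. The summed microglia markers were lowest in these 3 libraries, at 7720, 8691 and 7666 CPM in KO 1, KO 4 and WT 1. Their part in the pattern was not tested. When the 3 libraries were left out, an alternative chosen after seeing the data, 0 members passed the threshold. Atp6v0d2 then had a log2 fold change of -0.13, against 0.13 with all libraries. In that fit 24 of 50 members (48%) were higher in KO, against 48.7% of all genes.

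Hgsnat was high in KO 1 and WT 1 alone, at 176 and 174 CPM, against 92.1 to 143 CPM in the other 12 libraries. KO 4, which was high in Atp6v0d2 and Ctsk, had 114 CPM of Hgsnat. The gap between these libraries and the rest was thus larger than the difference between the genotype medians, which were 116 CPM in WT and 118 CPM in KO.

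Ctsc and Ctsd went in opposite directions between cultures. Ctsc was highest in KO 3 with 1380 CPM, WT 5 with 1274 and KO 5 with 1184, and lowest in KO 1 with 666. Ctsd was lowest in KO 3 with 8821 CPM, WT 5 with 9924 and KO 5 with 10462, and highest in KO 1 with 13628. The summed markers of border macrophages, the macrophages of the brain's surfaces and vessels, were also highest in the 3 libraries rich in Ctsc, at 805, 870 and 766 CPM in KO 3, WT 5 and KO 5, against 441 to 685 CPM in the other 11. Of the 6 markers of this list, Lyve1, Cd163 and Cbr2 were under 1 CPM on average, and the part of these cells in the pattern was not tested.

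**Figure D4:**
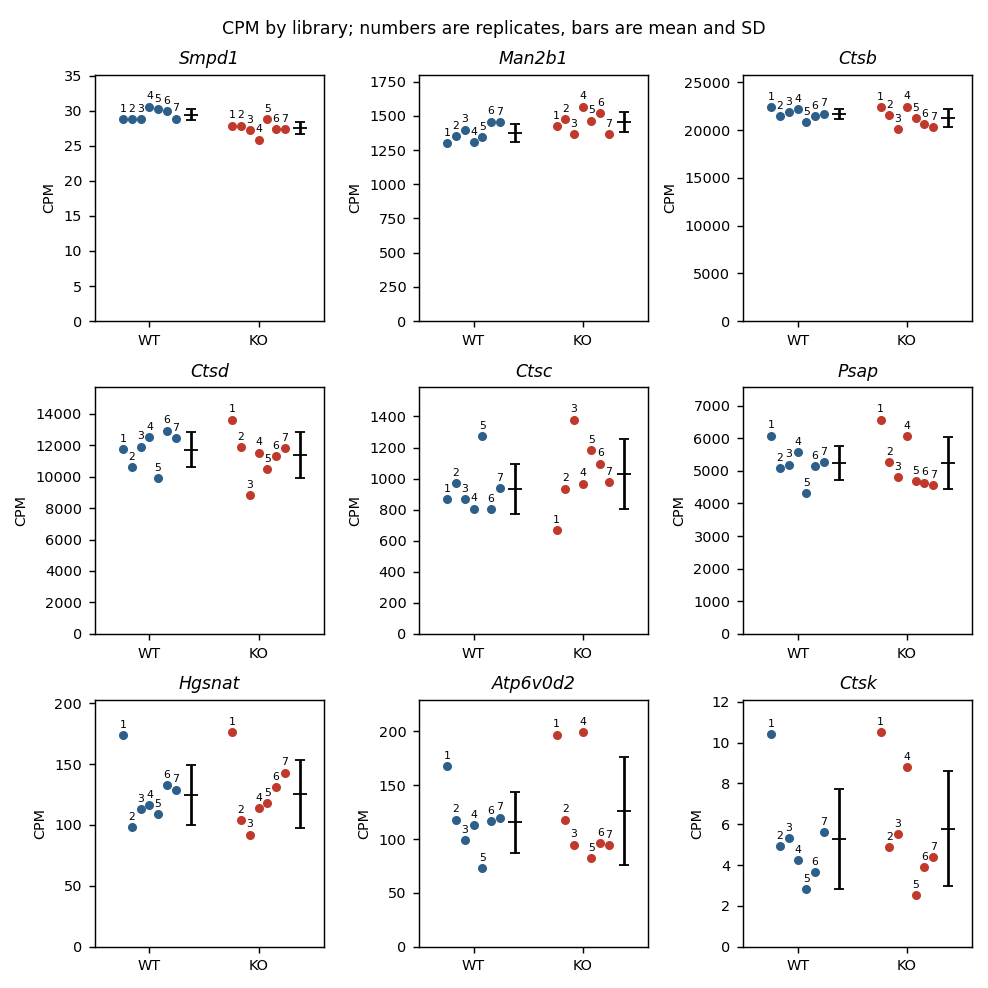
CPM of 9 lysosomal genes in each library, with WT in blue, KO in red, replicate numbers beside the points and bars for the mean and SD of each genotype. The axes start at 0. Libraries 1 of both genotypes stand high for Hgsnat, Atp6v0d2 and Ctsk, while the genotype means are close for every gene shown.

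The levels of the 3 regulators were set against those of the other 47 members across the 14 libraries, as deviations from the mean of each genotype, to ask which members moved with them between cultures. This question was posed after the values had been seen. It made 141 relations, each tested by 100000 permutations of the libraries within genotype, two-sided, and adjusted over all 141. Permuting takes the libraries of a genotype as exchangeable and the genotypes as unrelated, whereas some same-numbered libraries may share a batch. In that case the p-values would rest on fewer independent units than the 14 libraries. All values of a library share its scaling factor. How many of all genes tested moved as closely with these regulators was not determined. The relations are therefore not shown to be particular to lysosomal genes. For Tfeb, 8 members had a positive and 1 a negative relation at an adjusted p under 0.05: Ctsb, Psap, Ctsa, Gla, Atp6v0d2, Hexa, Ctsz and Tpp1, and on the negative side Grn. For Tfe3, the positive ones were Acp2, Ctsc, Asah1 and Ctsh and the negative ones Fuca1 and Ctsd, and for Mitf there was Ctsl. These are calls by Pearson's r. By Spearman's rho, Tpp1, Gla and Grn did not pass for Tfeb, nor did Fuca1 and Asah1 for Tfe3. By rho alone, Fuca1 passed for Tfeb, Hgsnat for Tfe3 and Galc for Mitf. For Galc and Mitf, rho was -0.79 (permutation p = 3.80e-04, adjusted p = 0.0176) and r -0.68 (permutation p = 0.0115, adjusted p = 0.0674), with r of -0.59 without KO 4 and KO 5.

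Ctsb followed Tfeb most closely, with r = 0.89 (permutation p = 2.90e-04, adjusted p = 0.0174) and rho = 0.91 (permutation p = 7.00e-05, adjusted p = 0.00987). Within the genotypes r was 0.89 in KO and 0.89 in WT, and without KO 4 and WT 5, the libraries farthest from the median of Tfeb, it was 0.83. The range of Ctsb itself was narrow, so this is a close ordering of small differences. For Psap and Tfeb, r was 0.86 (permutation p = 3.70e-04, adjusted p = 0.0174) and rho 0.89 (permutation p = 2.90e-04, adjusted p = 0.0176), with 0.90 in KO, 0.79 in WT and 0.80 without the same libraries. For Grn and Tfeb, r was -0.74 (permutation p = 0.00402, adjusted p = 0.0462) and rho -0.68 (permutation p = 0.0166, adjusted p = 0.0937), with -0.64 without those libraries, so Spearman's measure did not pass after adjustment. No r is read for Atp6v0d2, although it is counted above, since its libraries fell into separate clusters. Psap was highest in the same libraries, KO 1, WT 1 and KO 4. Of these, the r of 0.80 for Psap left out only KO 4.

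For Acp2 and Tfe3, r was 0.80 (permutation p = 9.60e-04, adjusted p = 0.0271) and rho 0.82 (permutation p = 7.40e-04, adjusted p = 0.0201), with 0.87 in KO, 0.68 in WT and 0.68 without KO 1 and WT 4. For Ctsl and Mitf, r was 0.74 (permutation p = 0.00479, adjusted p = 0.0462) and rho 0.78 (permutation p = 0.00225, adjusted p = 0.0352), with 0.74 in KO, 0.78 in WT and 0.69 without KO 4 and KO 5. Ctsd went against Tfe3, with r = -0.75 (permutation p = 0.00470, adjusted p = 0.0462) and rho = -0.78 (permutation p = 0.00198, adjusted p = 0.0349), and r was -0.69 without KO 1 and WT 4.

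**Figure D5:**
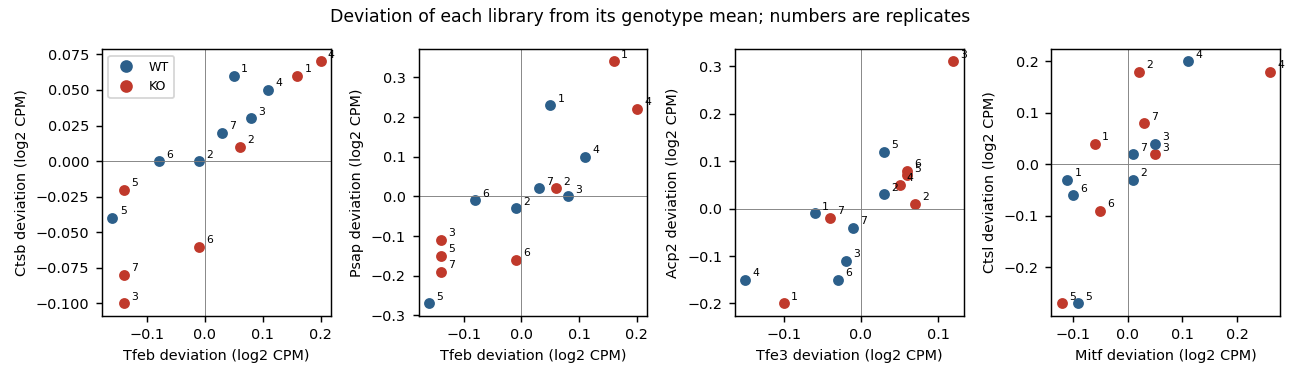
Deviation of each library from the mean of all 14 libraries in log2 CPM, for Tfeb against Ctsb and Psap, Tfe3 against Acp2 and Mitf against Ctsl. The title names the genotype mean, but the points are centred on all libraries. Points are the 14 libraries, WT in blue and KO in red, with replicate numbers, and each pair rises together. The r of 0.89, 0.86, 0.80 and 0.74 were computed on deviations from the mean of each genotype, not on the points shown.

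The E-box that these factors bind was looked for in the promoters of the members, taken from RefSeq (GRCm38.p6) as the 250 bases before and 50 after each start site. A promoter was found for 42 of the 50 genes, 57 promoters in all. Missing were Hgsnat, Cstb, Ctsb, Ctsh, Npc1, Atp6v0d2, Aga and Asah1. The 6 letters CACGTG, which read the same on both strands, were in 10 of 57 member promoters (17.5%), against 7.15% of 32851 promoters of all genes and 7.84% of those of protein-coding genes. With a T before or an A after them the shares were 14.0% and 3.77%, and with both, TCACGTGA, 8.77% and 0.974%. These forms contain each other. The 10 genes with the core were Ctsa, Ctsd, Ctsf, Ctsl and Lgmn among the proteases, Gla and Naglu among the glycosidases, and Cln3, Lamp1 and Mcoln1 among the membrane proteins. The cystatins, the lipid class, the phosphatases and nuclease and the regulators had none in the windows found. A match describes letters only, and binding was not measured.

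The full form of 8 letters was found in 5 genes. The windows of 30 bases around it are shown so that the match and its surroundings can be compared between genes, with the 8 letters in capitals and each window in the direction of its gene. Those of Cln3 (chr7:126583340-126583369, minus strand) and Ctsd (chr7:142387908-142387937, minus strand) begin the match 122 and 99 bases before the start site, and that of Mcoln1 (chr8:3500462-3500491, plus strand) 46 bases before. Ctsa has a pair of matches, 13 bases before the start (chr2:164833749-164833778, plus strand) and 4 bases after it (chr2:164833766-164833795), and Gla a pair 228 bases (chrX:134601215-134601244, minus strand) and 195 bases before it (chrX:134601182-134601211).
Cln3: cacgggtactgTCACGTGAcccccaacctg
Ctsd: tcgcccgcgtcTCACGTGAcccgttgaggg
Mcoln1: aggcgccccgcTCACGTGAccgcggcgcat
Ctsa, first match: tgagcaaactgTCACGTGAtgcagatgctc
Ctsa, second match: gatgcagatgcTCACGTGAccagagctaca
Gla, first match: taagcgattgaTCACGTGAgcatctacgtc
Gla, second match: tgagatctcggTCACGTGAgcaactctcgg

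Members with and without the core were set side by side. The 10 with it had a median log2 fold change, KO over WT, of 0.01 (range -0.05 to 0.05) and the 32 without it one of 0.03 (range -0.10 to 0.16). The median SD between libraries of a genotype was 0.0952 with it and 0.0837 without. Of the 5 genes with the full form, Ctsa passed with Tfeb between cultures by both measures and Gla by Pearson's r but not by rho (adjusted p = 0.0183 and 0.0506, permutation). Ctsd, Mcoln1 and Cln3 did not pass, with r of 0.62, 0.62 and 0.00 (permutation p = 0.0281, 0.0260 and 0.993, adjusted p = 0.128, 0.122 and 0.993).

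Other genes of the same compartment were examined in lists of 105 genes, of which 104 were tested. Their log2 fold changes ran from -0.15 to 0.50, and for 89.4% of them the genotype means differed by less than 1 SD, a share below those given above for the members and for all genes, with the difference not tested. In edgeR 0 of them had an adjusted p under 0.05, and DESeq2 called 0 as well. The median log2 fold change was 0.02 for 25 further hydrolases, 0.01 for 33 membrane proteins and transporters, -0.01 for 16 subunits of the proton pump, 0.00 for 12 genes that sort enzymes to the lysosome and 0.01 for 18 genes of mTORC1 and TFEB control. At an unadjusted p under 0.05 there were 4 of the 104, where 3.37% of all genes tested reached that level in either direction. All 4 were higher in KO, a direction read after the two-sided test, and 1.75% of all genes tested reached that level upwards. They were Tfec, a further relative of TFEB, at 21.2, 22.6 and 25.8 CPM in WT and 21.2, 26.1 and 26.9 CPM in KO (log2 fold change 0.15, SE 0.0541, 95% interval 0.04 to 0.27), the mannosidase Man2b2 (0.09, SE 0.0320, 95% interval 0.02 to 0.16), the metal transporter Slc11a1 (0.09, SE 0.0377, 95% interval 0.01 to 0.17) and Rptor, the scaffold of mTORC1 (0.09, SE 0.0402, 95% interval 0.00 to 0.17). The adjusted p of each was 0.943. Igf2r, the mannose 6-phosphate receptor that carries hydrolases to the lysosome, was measured at 134, 166 and 191 CPM in WT and 112, 142 and 193 CPM in KO, and its log2 fold change was -0.15 (SE 0.104, 95% interval -0.37 to 0.08). The genes with the next smallest p in edgeR were Gaa (log2 fold change 0.09) and Arsa (0.07) among the hydrolases, Sidt2 (0.07) and Slc15a3 (0.08) among the transporters, Atp6v0a2 (-0.04), Atp6v1h (-0.06) and Atp6v1f (0.03) among the pump subunits, Nagpa (0.06) and Vps29 (-0.04) in sorting, and Rraga (-0.06) in mTORC1 control.

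Since Atp6v0d2, Ctsk and Acp5 are known from osteoclasts, further genes of that cell were looked at, and 5 of 8 were expressed enough to be tested. Acp5 did not share the peak of Atp6v0d2 and Ctsk between libraries. It was at 1.07 CPM in both KO 1 and KO 4, 1.34 in WT 1 and highest, at 2.13, in KO 3. Whether the further genes followed either pattern between libraries was not examined. Nfatc1, the factor that drives osteoclast formation, was measured at 55.9, 60.4 and 64.7 CPM in WT and 59.7, 63.5 and 69.8 CPM in KO (log2 fold change 0.07, SE 0.0411, 95% interval -0.02 to 0.16). Mmp9, a gelatinase, was measured at 1.14, 2.20 and 7.32 CPM in WT and 1.38, 3.08 and 13.1 CPM in KO (log2 fold change 0.65, SE 0.467, 95% interval -0.35 to 1.64). Dcstamp, a protein of cell fusion, was between 0.618 and 1.81 CPM (log2 fold change 0.17, SE 0.241, 95% interval -0.34 to 0.68). The genotypes overlapped for each of the 3 genes.

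Markers of other cells were uneven between the genotypes, although no gene of these lists passed the threshold. The median log2 fold change of the astrocyte markers was -0.62, of the oligodendrocyte markers -0.39 and of the neuron markers -0.27, that of the microglia markers 0.07 and that of the border macrophage markers 0.13, with 0 called in each list. Their part in the lysosomal values was not tested beyond 2 checks. With the astrocyte marker level as a covariate, 0 members passed and the median of the members was 0.02. Single values moved by more than that median, with the log2 fold change of Ctsc at 0.03 against 0.14 without the covariate and that of Ctsd at 0.01 against -0.05. Without WT 3 and WT 4, the libraries with most astrocyte RNA (also chosen after seeing the data), 0 passed and the median was 0.02.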

How the data were processed

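Genotypes were taken from the labels of 14 cultures of primary microglia. Poly(A) RNA was sequenced in pairs of reads and mapped to GRCm38 by the authors, who deposited a table of raw counts by Ensembl gene ID. Trimmomatic 0.36, STAR 2.5.2b, featureCounts and Subread 1.5.2 are named in the submitters' processing notes. The strand setting and annotation release are not given in the sources used here, so reads of the 16 members that share exon bases with another gene are uncertain. Symbols came from GENCODE for GRCm38, which held 49056 of the 49315 genes.

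Low genes were removed with filterByExpr (at least 10 counts, total at least 15), TMM factors were computed, and KO was compared with WT in edgeR 4.0.16 (R 4.3.3) by a two-sided quasi-likelihood F-test on genotype only, with Benjamini-Hochberg adjustment over 15700 genes and a threshold of 0.05. The study's batch covariate is not in the labels and was not used here. CPM use TMM-scaled library sizes, and log2 CPM a prior count of 1. On simulated data with 15534 tested genes, edgeR recovered 80 of 100 genes changed by 1 on the log2 scale and 69 of 100 changed by 0.5, with 4.49% false calls, and 94.8% of its 95% intervals held the true value. DESeq2 1.42.0 gave 19.6% false calls there and served as an alternative. Each library was an independent pool of animals.

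The members and lists were chosen with earlier results of these data known. Members described in full are those with an unadjusted p under 0.05, the 2 smallest p and the highest level per length of each class, and the regulators. Others were named for their spread after their values were seen. Of the other lysosomal lists, up to 3 genes with the smallest p are named.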

Additional observations from a re-analysis of the deposited data

Results flagged for a closer look

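In 4 cases, 1 library stood far from the other libraries of its genotype, by a gap to its neighbour, as a share of the whole range of log2 CPM, above the 95% limit for 7 values. Of 100 groups examined (50 genes in both genotypes), chance alone would give about 5. Ctsc was high in WT 5 (gap 0.587), at 1274 CPM against a WT median of 870. Lgmn was low in KO 1 (gap 0.658), at 3074 CPM against a KO median of 3287. Ppt1 was low in WT 1 (gap 0.576), at 256 CPM against 290. Gm2a was low in KO 3 (gap 0.605), at 128 CPM against 146. WT 5 also had the most border macrophage marker RNA, and KO 1 and WT 1 the least microglia marker RNA. Their part in these values was not tested.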

How the results depend on the processing

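The count of 0 members past the threshold held in all 24 alternatives run: other scaling factors, other filters, DESeq2, a replicate block, an astrocyte covariate and the removal of single libraries or small sets of them. The number of members at an unadjusted p under 0.05 was 1 in the main fit (3.37% of 15700 genes). It moved to 2 with DESeq2 (Smpd1 and Man2b1), where 2.04% of 34581 genes reached that level. DESeq2 kept the low-count genes, so the 2 shares are over unlike sets. The number was also 2 with the astrocyte covariate (Smpd1 and Gm2a, 3.27% of genes) and without the 3 libraries richest in Atp6v0d2 (Smpd1 and Ctsh, 5.06%). It ranged from 1 to 5 when single libraries were left out. The number of all genes past the threshold was 3 in edgeR and 11 in DESeq2. Replicate numbers are shared between genotypes, but the deviations of same-numbered libraries correlated by over 0.1 in 3 of 7 pairs, between -0.196 and 0.743 with a mean of 0.103 against -0.0156 for other pairs, and 3 of 14 libraries correlated best with their own number. The numbers were therefore not taken to pair the samples, although some may share a batch that the labels do not give. With the replicate block, 3 members in edgeR (Smpd1, Npc2 and Ctsh, 5.87% of all genes tested) had an unadjusted p under 0.05. In DESeq2 with the block 2 did (Npc2 and Smpd1), against 1.65% of 34582 genes including low-count ones. DESeq2 with the block called 27 of all genes. The share of counts in the members differed by -0.07 percentage points, KO minus WT, and by -0.15 to 0.00 without single libraries. The cause of these moves was not tested. Depth limits Acp5 most.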
